A study of Populus ussuriensis with 20 samples.

Results

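Stem cuttings of Populus ussuriensis, a poplar, that overexpress the transcription factor gene PuHox52 were compared at 48 h and at 24 h after cutting. The comparison rests on the 4 libraries labelled with that genotype and those times, 2 per time, out of 20 in the series. The overexpressing plants (OE) carry PuHox52 behind the 35S promoter of cauliflower mosaic virus, which is active in most plant tissues, and the controls are untransformed wild-type plants (WT). Each library is a biological replicate of 40 cuttings grown in vitro on diluted Murashige and Skoog medium under 16 h of light and 8 h of dark. RNA came from the basal 0.5 cm of the cutting, the end at which adventitious roots form. How many transgenic lines were used is not stated, and the series text and the growth protocol differ on the age of the plants. The 24 h between the times place both nominally at the same hour of the light cycle, although the labels give only hours since cutting. The same step in WT, with 2 libraries per time, served as the comparison, and the OE libraries at 6, 12 and 96 h showed the course around it.

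Adventitious roots arise from stem tissue and not from another root. After a cutting is taken, auxin moving down the stem gathers at the base, cells near the vascular cambium re-enter division, and organised root primordia form before roots emerge. PuHox52 belongs to the homeodomain-leucine zipper proteins, plant transcription factors that bind DNA as dimers. The deposited tables identify genes by ID, position and length only, and nothing in the sources used here pairs an ID with a product, so genes are given by ID and position and without a function. For the same reason PuHox52 itself could not be looked up to check the OE label, and the labelled tissue could not be checked against cell type markers. Coordinates are those of the deposited tables, whose genome build is not given in the sources used here.

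The 20 libraries held 10399262 to 27472303 counts. The OE libraries at 24 h held 17731051 and 13305368, and those at 48 h 18740972 and 16447911. The test covered 26391 gene models, which took at least 99.94% of each library's counts. Levels are given as CPM, counts per 1000000 counts after scaling of library sizes by the trimmed mean of M values. A gene is said to be called, or to have risen or fallen, when edgeR's quasi-likelihood test gave it a Benjamini-Hochberg adjusted p under 0.05. Replicates of a group differed by a median of 0.202 (OE 24 h) and 0.176 (OE 48 h) on the log2 scale, and these were 0.170 and 0.144 in WT.

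Between 24 and 48 h in OE genes changed in both directions, mostly by less than 2-fold, and most of the changes of 8-fold or more were rises. The test called 1745 of the 26391 genes, 6.61% of those tested. Of these, 641 (2.43%) were higher at 48 h and 1104 (4.18%) were lower. The median called rise was 1.78-fold (log2 fold change 0.83, quartiles 0.55 and 1.56), and the median called fall was 1.55-fold (-0.63, quartiles -0.79 and -0.51). Over all genes tested the median log2 fold change was 0.0095. By at least 2-fold, 262 genes rose (0.993%) and 140 fell (0.53%), and by at least 8-fold 62 rose and 5 fell. Against a log2 fold change of 1 as the null value, edgeR's glmTreat called 56 genes higher and 2 lower. In bulk tissue, fewer cells of a type and less RNA per cell cannot be told apart, and this holds for every change described here.

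**Figure D1:**
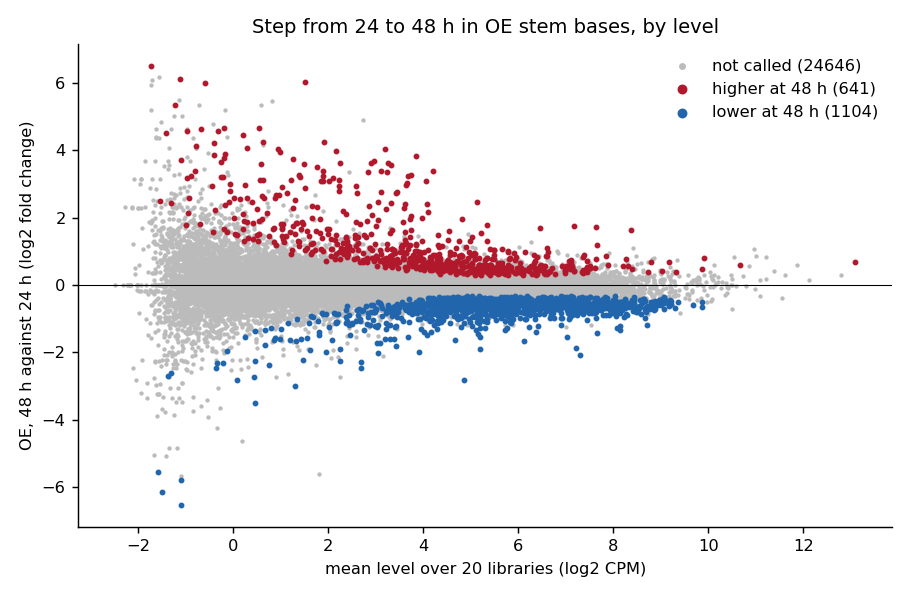
Log2 fold change between 48 and 24 h in OE (vertical axis) against the mean log2 CPM over 20 libraries (horizontal axis), 1 point per gene tested. The 641 genes called higher (red) reach log2 fold changes above 6, while most of the 1104 called lower (blue) lie between 0 and -1 at middle and high levels.

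The number of calls depended on which library stood for 24 h. The test called 85 genes (63 up, 22 down) when OE 24 h replicate 1 was left out, and 2079 (576 up, 1503 down) when OE 24 h replicate 2 was. Leaving out OE 48 h replicate 1 gave 1147 calls (269 up, 878 down), and leaving out OE 48 h replicate 2 gave 269 (157 up, 112 down). A fit of the 4 libraries alone gave 246 (159 up, 87 down). Calls of higher genes outnumbered those of lower genes in 3 of these 5 fits. The sizes moved less than the counts, but these genes were chosen by their change in the same libraries, so this is no separate support. Among the 1104 genes called lower, the median log2 fold change was -0.47 without OE 24 h replicate 1 and -0.78 without OE 24 h replicate 2, and among the 641 called higher it was 0.74 and 0.92.

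Leaving aside genes whose log2 CPM averaged under 1 over the 20 libraries, the gene with the highest called log2 fold change was Potri.010G085300.v3.0 (chromosome 10, 11053725 to 11054825). It had 3 and 0 counts in the OE libraries at 24 h (0.170 and 0 CPM), and 127 and 110 counts at 48 h (6.70 and 6.49 CPM). Both libraries at 48 h lay far above both at 24 h, but single genes of this step were named only where the libraries of the times did not overlap. Adjusted for library size, the summed counts rose 69.0-fold (95% counting interval 23.3 to 337, counting error only). The adjusted p was 0.0015 by edgeR's quasi-likelihood test. In OE it had been at 0.111 ± 0.157 CPM at 6 h and 0.107 ± 0.0779 at 12 h, and it stood at 3.83 ± 0.172 at 96 h (SD, n = 2 each), so 48 h was its highest time. In WT it rose too, from 0.795 ± 0.195 to 6.51 ± 4.14 CPM (log2 fold change 3.02, SE 0.63, adjusted p 0.0125 by edgeR), and the steps of the genotypes did not differ past the threshold (difference 2.99, SE 1.31, adjusted p 0.604 by edgeR).

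Next came Potri.005G182700.v3.0 (chromosome 5, 19919817 to 19921506), with 4 and 4 counts at 24 h and 78 and 98 at 48 h in OE. These were 0.227 and 0.292 CPM, then 4.11 and 5.78 CPM. The libraries of each time were close together. The rise was 18.8-fold (log2 fold change 4.23, SE 0.50, adjusted p 0.00032 by edgeR), and at 96 h the gene had reached 18.5 ± 1.30 CPM (n = 2). The calls of these 2 rises held in every alternative tried.

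In the opposite direction, at the same minimum level, Potri.001G076300.v3.0 (chromosome 1, 6054195 to 6057305) had 69 and 26 counts at 24 h in OE and 6 and 7 at 48 h. The levels were 3.91 and 1.90 CPM, then 0.316 and 0.413 CPM. The libraries at 24 h lay apart from each other. The fall was 7.99-fold (log2 fold change -2.999, SE 0.54, adjusted p 0.0054 by edgeR). At 96 h OE stood at 2.78 ± 0.523 CPM (n = 2), close to its level at 24 h. In WT the gene was at 2.76 ± 1.45 CPM at 24 h and 2.50 ± 1.23 at 48 h. The gene had no difference of steps between the genotypes past the threshold (difference -2.86, SE 0.71, adjusted p 0.152 by edgeR). Its call in OE was lost when OE 24 h replicate 1 was left out (adjusted p 0.141 by edgeR), when OE 48 h replicate 2 was (0.0508), and in the fit of the 4 libraries alone (0.0516).

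Potri.001G011500.v3.0 (chromosome 1, 728820 to 730637) fell 7.03-fold (log2 fold change -2.81, SE 0.50, adjusted p 0.0052 by edgeR). Its libraries stood at 91.0 and 40.7 CPM at 24 h and at 12.97 and 5.66 CPM at 48 h in OE. It fell in WT as well, from 37.1 ± 18.9 to 8.03 ± 3.56 CPM (-2.22, SE 0.53, adjusted p 0.0227 by edgeR), so the genotypes moved alike in direction. At 96 h it was lower still in OE, at 4.18 ± 0.617 CPM (n = 2). The call in OE was lost when OE 24 h replicate 1 (log2 fold change -2.11) or 48 h replicate 2 (-2.37) was left out. With glmTreat, the OE falls of this gene and of Potri.001G076300.v3.0 were not called. Another gene model on the same strand overlaps this one, so their reads may have been divided between them.

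Measured by the change in CPM and not by the fold, the largest gains came from transcripts that were already abundant. Potri.013G101000.v3.0 (chromosome 13, 11347121 to 11349338) had 6285 and 7583 CPM at 24 h and 11665 and 10431 CPM at 48 h in OE. It was the gene with the most counts in both libraries at 48 h, with 1.18% and 1.08% of all counts. The rise was 1.59-fold (log2 fold change 0.67, SE 0.15, adjusted p 0.0163 by edgeR), one step of a climb from 988 ± 53.4 CPM at 6 h to 17042 ± 1369 at 96 h (n = 2 each). In WT the gene climbed from 801 ± 113 to 25925 ± 1098 CPM over these times (n = 2 each). Its step there was not called (0.38, adjusted p 0.149 by edgeR) and did not differ from that in OE past the threshold (adjusted p 0.827). Potri.009G007800.v3.0 (chromosome 9, 1407052 to 1412232) rose 1.52-fold, from 1268 and 1267 CPM to 1888 and 1974 CPM (0.61, SE 0.11, adjusted p 0.0067 by edgeR). The WT step of this gene, from 1426 ± 146 to 1870 ± 24.2 CPM, was not called either (0.39, adjusted p 0.0553 by edgeR). That step did not differ from the OE step past the threshold (adjusted p 0.84). The call of Potri.013G101000.v3.0 was lost when OE 24 h replicate 1 (0.237), 48 h replicate 1 (0.0932) or 48 h replicate 2 (0.0641) was left out, and in the fit of the 4 libraries alone (0.199). The call of Potri.009G007800.v3.0 was lost when OE 24 h replicate 1 (0.0982) or 48 h replicate 2 (0.0719) was left out, and in the fit of 4 libraries (0.109).

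The largest losses in CPM were 2 genes of different kinds. Potri.010G072200.v3.0 (chromosome 10, 9905022 to 9905982) went from 1487 and 1108 CPM at 24 h to 913 and 738 CPM at 48 h in OE, a 1.57-fold fall (log2 fold change -0.65, SE 0.16, adjusted p 0.0262 by edgeR) with 24 h replicate 2 closer to 48 h than replicate 1. That call was lost when OE 24 h replicate 1 (0.359) or 48 h replicate 2 (0.209) was left out, in the fit of 4 libraries (0.14), and with the trend on length and level removed (0.0928). Potri.013G080300.v3.0 (chromosome 13, 7005589 to 7053152) was a short peak. It had 530 and 690 CPM at 24 h and 163 and 125 CPM at 48 h in OE, a 4.24-fold fall (-2.08, SE 0.25, adjusted p 0.00031 by edgeR), and this call held in every alternative tried. At 12 h it stood at 131 ± 9.93 CPM and at 96 h at 44.7 ± 5.70 (n = 2 each), so no OE library of another time exceeded the 163 CPM of 48 h replicate 1. Its model spans 47564 bases for an exon length of 1326, and a second model overlaps it on the same strand with 1696 counts over the 4 libraries, against 18830 and 5208 for the gene itself at 24 and 48 h.

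The genes called lower were mostly abundant, as 574 of the 1104 (52.0%) lay in the top quintile of genes by mean level. Of all genes in that quintile, 10.9% fell and 2.60% rose. In the bottom quintile 0.511% fell and 1.84% rose. The called falls were also smaller in the top quintile, with a median of -0.60 on the log2 scale against -2.31 in the bottom one. Level is not independent of the test, since counts set how small a change can be called. The genes called higher were spread over the levels, with 137 of 641 (21.4%) in the top quintile.

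The falling genes were also short. Their median length was 1424 bases, against 1903 for the genes called higher and 1855 for those not called. Within the top quintile by level the medians were 1359, 2382 and 2206 bases. Among the 726 genes of that quintile with a length of at most 1188 bases, 231 (31.8%) were called lower and 16 higher. Among the 1552 genes of that quintile with at least 2749 bases, 28 (1.80%) were called lower and 52 higher. The median log2 fold changes of these groups, called or not, were -0.25 and 0.076. The span on the chromosome divided by the length, which rises with intron content, had a median of 2.15 in the falling genes, 1.63 in the rising ones and 1.87 over all genes tested.

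Replicates of the same time differed along the same lines. For the short, abundant group the median log2 difference between replicate 2 and replicate 1 was -0.19 in OE at 24 h and -0.14 at 48 h, and for the long, abundant group it was 0.0073 and 0.019. The 4 possible pairs of a 48 h and a 24 h library gave medians from -0.41 to -0.13 for the short, abundant group and from 0.054 to 0.10 for the long one. The direction of the contrast by length was thus the same in all 4 pairs, and the size varied with the library. The step in WT gave -0.26 and 0.064 for these groups, whose mean level was taken over all 20 libraries, WT included. With each library's trend on length and level removed, an alternative chosen after the data were seen, 944 genes were called lower and 657 higher, and 870 of the 1104 falling genes and 519 of the 641 rising ones were still called. The part of library differences in the contrast by length was not tested further.

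The falling genes held a smaller share of the counts at late than at early times in OE, although the libraries at 12 and 24 h overlapped. The fall from 24 to 48 h was built into the choice of these genes. The OE libraries at 6 h gave them 16.3 and 17.3% of the counts, those at 12 h gave 13.1 and 11.2%, and those at 24 h gave 12.1 and 10.2%. By 48 h the shares were 7.72 and 6.92%, and by 96 h they were 6.81 and 6.85%. Replicate 1 at 24 h lay nearer to 12 h than replicate 2 did. The WT libraries held 10.1 and 9.24% at 24 h and 7.24 and 7.31% at 48 h. OE replicate 2 at 24 h was nearly equal to WT replicate 1, and because the genes were chosen as higher at 24 than at 48 h in OE, the shares of the genotypes at these times are given without a comparison. The rising genes held 2.74 and 3.17% at 24 h and 4.78 and 4.70% at 48 h in OE, and 3.25 and 3.48% then 4.34 and 4.55% in WT.

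**Figure D2:**
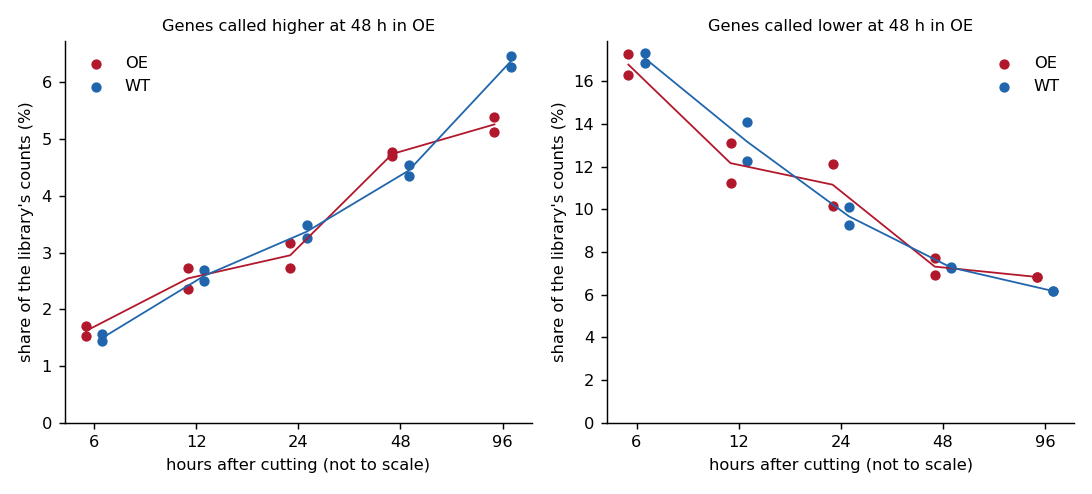
Share of each library's counts (vertical axis, %) held by the 641 genes called higher (left) and the 1104 called lower (right) at 48 h in OE, by hours after cutting, with 1 point per library and lines through the means (OE red, WT blue). The lower set falls from 16.3 and 17.3% at 6 h to 6.81 and 6.85% at 96 h in OE, and the OE libraries at 24 h lie at 12.1 and 10.2%.

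Many of these genes had already moved before 24 h. From 6 to 12 h in OE, a comparison that shares no library with the step and called 36.8% of all genes tested, 747 of the 1104 falling genes were already called lower (67.7%, against 19% of all genes tested) and 75 called higher. Of the 641 rising genes, 275 were called higher from 6 to 12 h (42.9%, against 17.8% of all genes tested) and 49 lower. Of the falling genes 52.0% were in the top quintile by level, and both steps drew on a common estimate of each gene's spread. Genes of like level and spread were not compared, so the share over all genes is not a matched background. The medians of that early step were -0.55 and 0.47 on the log2 scale, beside 0.0041 over all genes. The counts of 747 and 275 genes are followed next without 1 library. There each is out of the fewer falling or rising genes that the step itself called. Both counts shrank where the step itself gave fewer calls, to 14 lower and 36 higher genes when OE 24 h replicate 1 was left out and to 70 and 70 when OE 48 h replicate 2 was. Leaving out OE 48 h replicate 1 gave 555 and 113.

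The steps on either side share libraries with the step from 24 to 48 h, so their values are set side by side only. The OE step from 12 to 24 h had 477 rising genes (1.81%) and 203 falling ones (0.769%), 2.58% in all. From 48 to 96 h, 961 were called higher (3.64%) and 935 lower (3.54%), 7.18% in all. The falling genes had a median log2 fold change of -0.15 from 12 to 24 h, -0.63 from 24 to 48 h and -0.052 from 48 to 96 h. The rising genes had -0.048, 0.83 and -0.15. By group means over the 5 OE times, 898 of the 1104 falling genes (81.3%) were highest at 6 h, and 652 were lowest at 96 h and 407 at 48 h. Of the 641 rising genes, 440 (68.6%) were lowest at 6 h, while 406 were highest at 48 h and 206 at 96 h. Of the genes not called, 34.4% were highest and 38.0% lowest at 6 h. The choice of the falling genes kept them from being highest at 48 h or lowest at 24 h, and the reverse held for the rising ones. These counts are therefore partly fixed by the call.

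The longest run of neighbouring genes that rose together lay on chromosome 7, from 13567801 to 13599455. Its choice was made after seeing these values. All 5 genes tested there rose by 5.34 to 10.5-fold (log2 fold changes 2.42 to 3.39, SE 0.29 to 0.41, adjusted p 2.94e-05 to 0.0041 by edgeR). Their summed level was 11.4 and 14.1 CPM in the OE libraries at 24 h and 89.4 and 107 CPM at 48 h, with no overlap between times. The tested genes on either side of the run had log2 fold changes of 0.32 and 0.29 (adjusted p 0.621 and 0.454 by edgeR). A run ends where the next tested gene is not called higher, so their lack of such a call was set by its definition. Of the 5 calls, 4 were kept when OE 24 h replicate 1 or 48 h replicate 2 was left out and with glmTreat, and all 5 in the other alternatives.

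At 24 h the OE libraries were lower in this run than at 12 h as well as at 48 h, but not lower than both at 6 h. Because the run was chosen by its rise from the 24 h libraries, low values there were favoured. The sum had been 27.5 and 21.1 CPM at 12 h in OE, after 11.4 and 7.66 at 6 h, so it was lower at 24 h than at 12 h in both libraries. The WT libraries at 12 h stood at 32.4 and 38.2 CPM, those at 24 h at 41.0 and 44.5 CPM, and those at 48 h at 76.7 and 129 CPM. All 5 genes were also called higher at 48 h in WT, by log2 fold changes of 0.94 to 1.63. Only the gene at the right end, 13595627 to 13599455, had steps that differed between the genotypes past the threshold (difference 2.45, SE 0.39, adjusted p 0.0415 by edgeR), while the other 4 had differences of 0.97 to 2.14 with adjusted p of 0.142 to 0.759. Within the run 4 further models were too low to test, with at most 50 counts over the 20 libraries. Within the tested genes, the neighbours at 13576137 and 13581441 overlap on 1 strand and those at 13592375 and 13595627 on opposite strands. The deposited counts may have divided reads among overlapping models, so the separate values are uncertain. Whether these genes are alike in sequence, which could divide reads as well, could not be checked.

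**Figure D3:**
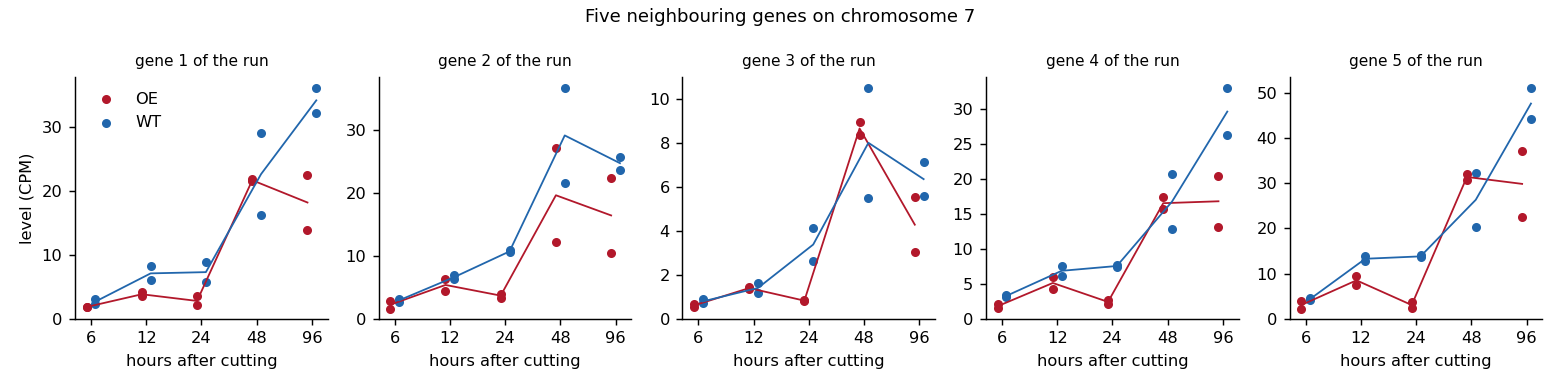
Level (CPM, vertical axes, a scale of its own in each panel) of the 5 tested genes of the chromosome 7 run by hours after cutting, in order along the chromosome, with 1 point per library and lines through the means (OE red, WT blue). The OE libraries at 24 h lie below the WT libraries in every panel, and at 48 h the genotypes are mixed.

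The same step in WT asked which of these changes also occurred without the transgene. There, 1473 genes were called (5.58%), of which 726 rose (2.75%) and 747 fell (2.83%). Leaving out any 1 of the 4 WT libraries lowered the WT count to between 244 and 710. Of the OE calls, 168 higher and 296 lower genes were called in the same direction in WT, which is 26.2% and 26.8% of the OE lists and 23.1% and 39.6% of the WT lists. When 1 library was left out, the 464 shared calls became 50 (OE 24 h replicate 1), 705 (OE 24 h replicate 2), 459 (OE 48 h replicate 1) or 119 (OE 48 h replicate 2). For the WT libraries they became 58 and 256 (24 h replicates 1 and 2) or 131 and 75 (48 h replicates 1 and 2). With each library's trend on length and level removed, 301 genes were called in the same direction in both genotypes. Opposite calls were made for 4 genes in the main fit, all higher in OE and lower in WT. Regardless of calls, 1070 of the 1104 falling genes (96.9%) had a negative log2 fold change in WT, against 48.0% of all genes tested, with a median of -0.42. Of the 641 rising genes, 589 (91.9%) had a positive one, against 51.9%, with a median of 0.44. The medians in OE, where the genes were chosen, were -0.63 and 0.83. The shares over all genes are not a background matched for level and length. The short, abundant group as a whole, called or not, had a median of -0.26 in WT. In the other direction, the 747 genes called lower in WT had a median of -0.45 in OE and the 726 called higher 0.38.

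**Figure D4:**
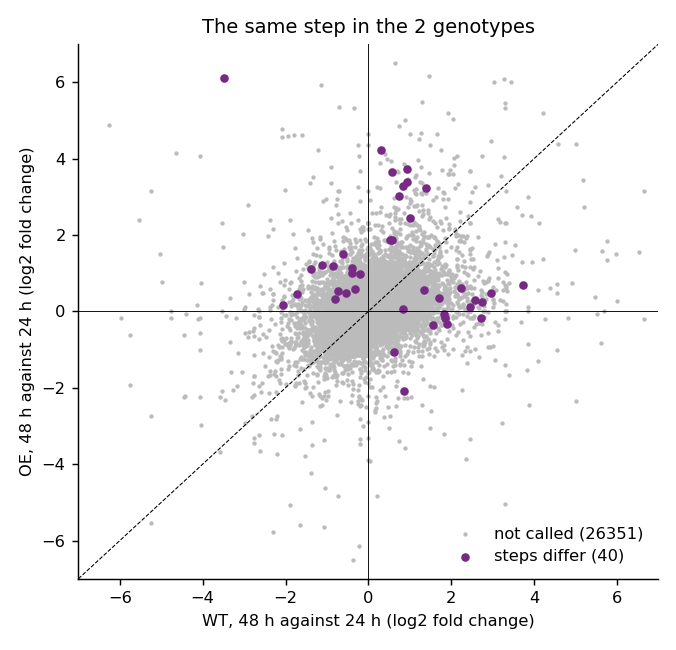
Log2 fold change from 24 to 48 h in OE (vertical axis) against that in WT (horizontal axis), 1 point per gene tested, with the line of equal steps dashed. The 40 genes whose steps differed between the genotypes (purple) lie off that line, many of them close to 0 on 1 of the axes.

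The difference between the steps was tested directly, and it was called for 40 genes (0.152%). The step was more positive in OE for 24 of them (0.0909%) and less positive for 16 (0.0606%). Among the 24, 19 rose in OE, of which 13 had no call in WT, and the other 5 fell in WT with no call in OE. Among the 16, 13 rose in WT with no call in OE, 2 fell in OE with no call in WT, and 1 rose in both. The count was unsteady, at 181 with DESeq2, 162 without a filter on low counts and 5 to 13 without any 1 of the 8 libraries.

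At 24 h all 24 genes of the first group stood lower in OE than in WT, by a median of -1.20 on the log2 scale, and at 48 h all 24 stood higher, by 0.47. All 16 of the second group stood higher in OE at 24 h, by a median of 1.75, and 15 of them lower at 48 h, by -0.25. The gap between the genotypes was larger at 24 h than at 48 h in 34 of the 40. These gaps are made of the same libraries as the test and are given as a description.

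Leaving aside genes whose mean log2 CPM was under 1, the largest such difference belonged to Potri.005G182700.v3.0, described above. In WT it had 1.73 and 2.40 CPM at 24 h and 2.08 and 2.98 CPM at 48 h, where the libraries overlap. The difference of the steps was 3.94 (SE 0.66, adjusted p 0.045 by edgeR). Potri.011G154900.v3.0 (chromosome 11, 17333801 to 17335138) had 0.680 and 1.31 CPM at 24 h and 9.65 and 14.6 CPM at 48 h in OE, and 5.75 and 5.80 then 7.68 and 9.56 CPM in WT. OE was lowest at 24 h, below its own 3.96 ± 0.570 CPM at 12 h (n = 2). The rise in OE was 12.4-fold (log2 fold change 3.64, SE 0.40, adjusted p 0.00012 by edgeR), and the difference from WT was 3.05 (SE 0.53, adjusted p 0.045). A model on the opposite strand overlaps it, with 81 counts over the 4 OE libraries.

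On the other side, Potri.009G070200.v3.0 (chromosome 9, 6923411 to 6924339) rose in WT and was not called in OE. Its WT libraries stood at 1.15 and 0.867 CPM at 24 h and at 17.4 and 9.67 CPM at 48 h. The OE libraries stood at 3.23 and 3.86 CPM, then at 5.64 and 5.72 CPM. The WT step was 3.74 on the log2 scale (SE 0.43, adjusted p 0.00021 by edgeR) and the OE step 0.68 (SE 0.37, adjusted p 0.292), a difference of -3.06 (SE 0.58, adjusted p 0.0491). Potri.013G080300.v3.0, the short peak at 24 h in OE, had 142 and 73.8 CPM at 24 h and 196 and 196 CPM at 48 h in WT. The difference of its steps was -2.95 (SE 0.35, adjusted p 0.0045 by edgeR). That call was kept without any 1 of the 8 libraries. The calls of the other three were lost without any 1 of them, with adjusted p of 0.0656 to 0.154 for Potri.005G182700.v3.0, 0.066 to 0.175 for Potri.011G154900.v3.0 and 0.0537 to 0.228 for Potri.009G070200.v3.0, while their differences stayed between 2.57 and 4.24 in size.

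**Figure D5:**
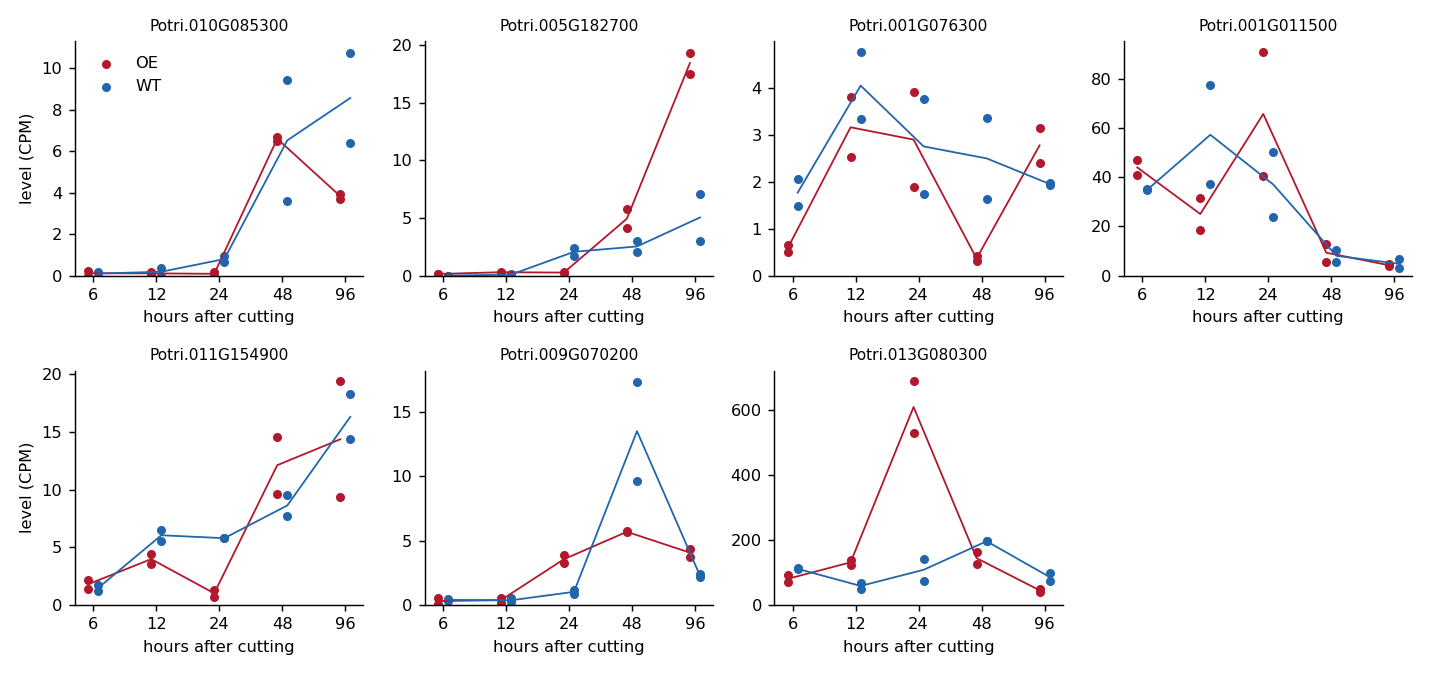
Level (CPM, vertical axes, a scale of its own in each panel) by hours after cutting of the genes with the largest fold changes in OE from 24 to 48 h and the largest differences between the genotypes' steps (log2 CPM averaging 1 or more), with 1 point per library and lines through the means (OE red, WT blue). Potri.013G080300 has 530 and 690 CPM in OE at 24 h and at most 196 CPM in every WT library.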

How the data were processed

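RNA-seq was measured in 20 libraries, 2 per genotype and time. The submitters' processing notes name TopHat2 2.1.1 and HTSeq 0.6.0 without a role. What build, annotation and strand rule were used is not given in the sources used here. Per the file headers, the authors deposited counts, FPKM values and a normalized signal for each of 39538 gene models, 261 of them named newGene. Only the counts were tested. The 2 other columns were not used for any result, and how the normalized signal was scaled is not stated.

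R 4.3.3 with edgeR 4.0.16 fitted 1 group-means model over all 20 libraries (10 residual degrees of freedom) after filterByExpr and TMM scaling. The fit was tried on simulated counts drawn from its own means and spreads. Those counts hold no shifts between libraries by gene length, so the trial does not bear on such shifts. DESeq2 1.42.0 was an alternative. SE is the size of the log2 fold change divided by the square root of F. Replicates of each group differed beyond sampling noise (chi-square per degree of freedom 4.48 to 16.2). The labels give no replicate numbers, so the numbers used here only name libraries.

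The comparison and gene groups were chosen with earlier results of these data known. Named genes are, per direction, the 2 largest called log2 fold changes, CPM changes and differences of steps, at a mean log2 CPM of at least 1 and with libraries of the groups not overlapping. Genes at 0 counts in both OE libraries of 1 time were to be named too, but none reached that level. Product lists and cell type markers could not be formed.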

Additional observations from a re-analysis of the deposited data

Results flagged for a closer look

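The step from 24 to 48 h differed between OE and WT for 40 genes by edgeR's quasi-likelihood test of the difference itself with Benjamini-Hochberg adjustment, and this test is what singled out the values given here. Among the named genes these were Potri.005G182700.v3.0, with a log2 difference of 3.94, Potri.011G154900.v3.0 with 3.05, Potri.009G070200.v3.0 with -3.06 and Potri.013G080300.v3.0 with -2.95. Groups of 2 libraries are too small to look for single outlying libraries.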

How the results depend on the processing

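No paired analysis was possible because the labels carry no replicate numbers. For the OE step, the 1745 calls became 246 with the 4 libraries alone, 58 against a log2 fold change of 1 (glmTreat) and 85 to 2079 without 1 library. For the WT step, 1473 became 2883 with the 4 libraries alone, 20 with glmTreat and 244 to 710 without 1 library. For the difference of the steps, 40 became 181 with DESeq2, 162 without a filter on low counts and 5 to 13 without 1 library. With glmTreat it became 0, where 382 genes had an unadjusted p under 0.05. Median-of-ratios size factors, thinning to the smallest total and removal of the trend on length and level (the last chosen after the data were seen) kept all 3 counts within 1.5 times, and so did DESeq2 and the missing filter for the steps of each genotype. The named genes lost their call in 53 of the 148 recomputed values. Their direction was kept in all 148, but they were chosen with libraries of the groups not overlapping. Leaving out 1 library could thus hardly reverse it, and the kept direction is no separate support. Where 1 library was left out, the lone library of its group was assumed to vary like the other groups. The count of genes called the same way in both genotypes, 464, ran from 0 (glmTreat) to 773 (no filter on low counts), and from 50 to 705 without 1 library. That count was 301 with the trend on length and level removed. The causes of these changes were not tested.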

Other observations

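Every chromosome held genes of both directions in the OE step. The share called lower ran from 3.42% of the tested genes on chromosome 18 to 5.91% on chromosome 15, and the share called higher from 1.29% on chromosome 19 to 3.24% on chromosome 7. Of the 228 tested gene models named newGene, 4 were called higher and 1 lower. Over all genes tested, 2.43% were called higher and 4.18% lower.

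Besides the run on chromosome 7, 5 runs of at least 3 neighbouring tested genes were called in 1 direction, all noticed after the values were seen. Rising runs of 3 lay on chromosome 2 (3324802 to 3333162, log2 fold changes 2.77 to 3.74), chromosome 5 (22562767 to 22575473, 3.11 to 4.02), chromosome 10 (11049891 to 11059095, 1.54 to 6.01) and chromosome 14 (6743835 to 6759778, 0.59 to 0.99). The run on chromosome 10 includes Potri.010G085300.v3.0. The only falling run, of 4 genes, lay on chromosome 15 (14117463 to 14143943, -0.94 to -0.41). Of adjacent tested pairs with both genes called, 90 of 135 (66.7%) had the same direction, and of pairs 50 genes apart 61 of 102 (59.8%), with 54.2 to 60.3% at distances of 2, 5 and 10 genes. Both were called higher in 39 adjacent pairs and in 14 pairs 50 genes apart, and both lower in 51 and 47.

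A few genes went from no counts to some or the reverse. Of 85 tested genes with 0 counts in both OE libraries at 24 h, 4 were called higher at 48 h, with at most 23 counts over both libraries. Of 55 with 0 counts at 48 h, 4 were called lower, with at most 20 counts at 24 h.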
